A study of Mus musculus with 24 samples.

Results

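The unfolded protein and heat shock response was followed in the hippocampus (HIP) and entorhinal cortex (EC) through 10 mouse genes: Hspa5, Xbp1, Atf4, Ddit3, Hspa1a, Hspa1b, Hspa8, Hsph1, Dnajb1 and Hsp90aa1. They were taken by symbol from the deposited count table, in which 11 of the 55385 rows matched, because Ddit3 has a further identifier for a short upstream reading frame that lies over it and had 0 counts in all 24 libraries. The other 10 rows, 1 per gene, passed the filter on low counts in each comparison. RNA was sequenced from both regions of 6 male Ts65Dn mice and 6 male wt littermates aged 5 to 6 months, which gave 24 libraries in 4 groups of 6. Ts65Dn mice carry a small additional chromosome with a distal piece of mouse chromosome 16, related to human chromosome 21, joined to the proximal end of chromosome 17, so that genes unrelated to human chromosome 21 are triplicated too. Both genotypes were kept on the same F1 B6C3B background, a cross of C57BL/6 with a C3H line that carries the BALB/c allele of Pde6b. Hspa1a and Hspa1b lie on chromosome 17, distal to the triplicated stretch. In GRCm38 coordinates they are at chr17:34969190-34972156 and chr17:34956436-34959238 on the minus strand, Hspa5 is at chr2:34771970-34777547, Xbp1 at chr11:5520659-5525893, Atf4 at chr15:80255184-80257541, Dnajb1 at chr8:83608193-83612653 and Hspa8 at chr9:40800984-40810087, all 5 on the plus strand. The values count reads over the exons of each gene.

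Proteins that fail to fold are sensed separately in the cytosol and in the endoplasmic reticulum (ER). In the cytosol they draw chaperones away from the transcription factor HSF1, which then switches on the heat shock genes. In the ER they activate IRE1, which splices the Xbp1 mRNA, ATF6, and PERK, whose phosphorylation of eIF2alpha lowers translation while that of ATF4 goes up. In the brain these programmes are known from protein aggregation, ischaemia and metabolic stress, and several of their chaperones are abundant in unstressed neurons.

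Values are CPM, the counts of a gene scaled to a common library size after TMM normalisation of the library totals, which ranged from 23128589 to 40476492 counts. A comparison is called where edgeR's quasi-likelihood test gave a Benjamini-Hochberg adjusted p under 0.05 over all genes tested. The labels were checked with 53 triplicated genes, whose median fold against the wt mean was 1.45 to 1.54 in 5 of the 6 Ts65Dn mice and 0.986 to 1.01 in wt. In the library labelled Ts65Dn replicate 3 it was 1.01 in HIP and 1.002 in EC. The genotype calls of the members and of the pathway lists are therefore given with and without this mouse. The intervals between genotypes include it. The regions matched their labels, since 7 of 8 hippocampus markers were higher and 1 lower in HIP, and 8 of 8 cortex markers were higher in EC in both genotypes. The summed choroid plexus markers, ranged from 55.6 to 5234 CPM over the HIP libraries and from 9.03 to 51.7 CPM over those of the EC.

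Per kb of exon, Hsp90aa1, the stress-inducible cytosolic HSP90, had the highest level of the 10 genes, with group means of 145 to 164 CPM per kb. Hspa8, the constitutive HSP70 of the cytosol, followed with 93.6 to 123 CPM per kb, and then Hspa5, which encodes the ER chaperone BiP, with 79.4 to 96.1. Hsph1, an HSP110 nucleotide exchange factor for HSP70, was at 52.0 to 59.2, and the transcription factor gene Atf4 at 40.1 to 41.1 CPM per kb. Xbp1 was at 22.4 to 32.7, Dnajb1, an HSP40 that hands clients to HSP70, at 13.98 to 23.9, and Ddit3, which encodes CHOP, at 12.5 to 14.2. The classical inducible HSP70 genes were lowest, Hspa1b at 2.05 to 2.22 and Hspa1a at 1.22 to 1.57 CPM per kb. This order was the same in all 4 groups. The ranges of Hspa8 and Hspa5 overlapped in each group, as did those of Hsph1 and Atf4, whereas Ddit3 and Hspa1b were apart in all 4. As counted, Hsp90aa1 was above Hspa8 in every library of HIP, but the ranges of the 2 genes overlapped in EC (147 to 181 and 89.4 to 167 CPM per kb in wt). Of the distinct stretches of read length in Hspa8, 38.6% also occur in other genes. The share was 47.5% for Hsp90aa1, 60.3% for Hspa1a and 62.3% for Hspa1b. In HIP the Hspa8 pseudogene Gm15459 took 9.43 to 38.4% of the summed CPM of the pair. The ranks of these genes hold for reads as counted, and no order with shared reads added was computed. Hspa1a rested on 71 to 164 counts per library, against 14058 or more for Hsp90aa1, so counting error weighs most on Hspa1a.

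**Figure D1:**
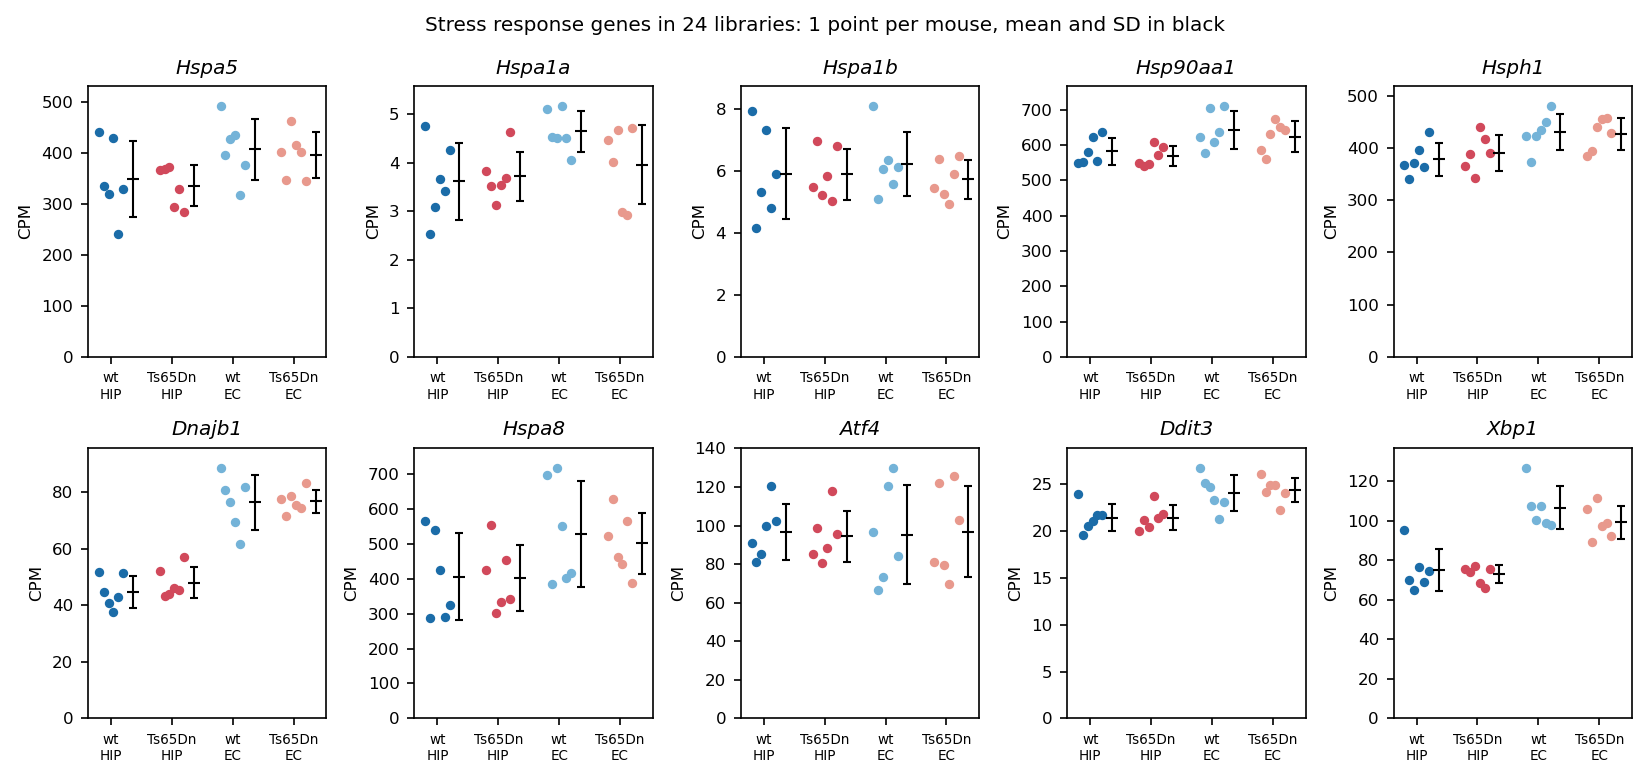
CPM of the 10 stress response genes in each library, 1 panel per gene with its own linear axis from 0, points for the 6 mice of a group and the group mean ± SD in black beside them. The genotypes overlap in each panel, Dnajb1 and Xbp1 of the HIP lie below those of the EC within each genotype, and Hspa8 and Atf4 spread widely between mice.

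The first question was whether the extra chromosome changes the level of these genes. None of the 10 was called between Ts65Dn and wt, neither in HIP (smallest edgeR adjusted p = 0.668, Dnajb1) nor in EC (smallest edgeR adjusted p = 0.353, Hspa1a). At an unadjusted p under 0.05 there were also 0 of 10 in both regions, beside 14.8% of all genes tested in HIP and 18.97% in EC, and DESeq2 called 0 of 10 in both. Over all genes tested, edgeR called 1.04% in HIP (0.542% higher and 0.501% lower in Ts65Dn) and 2.5% in EC (1.15% higher and 1.35% lower). Likewise 0 of the 10 had wt and Ts65Dn libraries that did not overlap, against 1.67% of genes in HIP and 2.46% in EC. The members' median log2 fold change was -0.01 in HIP and -0.05 in EC, beside 0.00 for all genes tested in each region.

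In the ER arm, Hspa5 ranged from 241 to 441 CPM with a median of 331 in HIP of wt mice and from 284 to 372 with a median of 348 in that of Ts65Dn mice. Its log2 fold change was -0.06 ± 0.13 (SE, n = 6 per group) in HIP, with a 95% interval of -0.33 to 0.22. In the EC the ranges were 316 to 492 CPM (median 411) in wt and 345 to 462 (median 402) in Ts65Dn, with a log2 fold change of -0.05 and an interval of -0.25 to 0.15. The Ts65Dn mice thus lay inside the range of the wt mice in both regions. Xbp1, the mRNA that IRE1 splices, ranged from 64.9 to 95.1 CPM (median 72.2) in the wt HIP and from 65.8 to 77.1 (median 74.7) in the Ts65Dn HIP. Its log2 fold change was -0.05 (-0.22 to 0.12) in HIP and -0.11 (-0.26 to 0.04) in EC. The gene counts do not tell spliced from unspliced Xbp1, and phosphorylation of IRE1, PERK or eIF2alpha is not seen in RNA.

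In the integrated stress response arm, Ddit3 varied little between mice, with coefficients of variation of 5.18 to 7.92%. It ranged from 19.6 to 23.9 CPM (median 21.4) in the wt HIP and from 20.0 to 23.8 (median 21.3) in the Ts65Dn HIP. The difference had an interval of -0.13 to 0.12 on the log2 scale in HIP and of -0.12 to 0.14 in EC. The upper end in EC is a 1.10-fold higher level, with the mouse labelled Ts65Dn replicate 3 counted as Ts65Dn. In the 12 fits with 1 mouse left out, the log2 fold change was -0.03 to 0.03 in HIP and -0.02 to 0.05 in EC. Atf4 was at 96.7 ± 14.4 CPM in wt and 94.5 ± 13.3 in Ts65Dn (mean ± SD, n = 6 each) in HIP, and at 95.2 ± 25.7 and 96.8 ± 23.6 CPM in EC. Its interval was wider, -0.26 to 0.19 in HIP and -0.37 to 0.41 in EC.

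Of the cytosolic chaperones, Hsp90aa1 (interval -0.15 to 0.07 in HIP and -0.19 to 0.08 in EC) and Hsph1 (-0.10 to 0.19 and -0.16 to 0.11) were measured closely. Dnajb1 had a log2 fold change of 0.09 in HIP (-0.10 to 0.28), and its interval in EC was -0.16 to 0.16. Hspa8 had the widest interval of the abundant genes, -0.43 to 0.40 in HIP and -0.44 to 0.27 in EC. Hspa1a ranged from 2.54 to 4.75 CPM (median 3.54) in the wt HIP and from 3.12 to 4.63 (median 3.61) in the Ts65Dn HIP. In the EC it ranged from 4.05 to 5.16 (median 4.52) in wt and from 2.93 to 4.70 (median 4.24) in Ts65Dn, where 3 mice lay below all wt mice. Its log2 fold change in EC, -0.24 ± 0.13, was the largest of the 20 member values in either region and was not called. Hspa1b was at 5.92 ± 1.47 CPM in wt and 5.90 ± 0.824 in Ts65Dn in HIP (interval -0.34 to 0.33), and its interval in EC was -0.37 to 0.12.

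Without the library labelled Ts65Dn replicate 3, again 0 of 10 members were called in either region, and the largest log2 fold changes were 0.12 for Dnajb1 in HIP and -0.29 for Hspa1a in EC (edgeR adjusted p = 0.548 and 0.281). Since whole tissue was sequenced, fewer cells of a type and less RNA per cell cannot be told apart in any of these comparisons.

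**Figure D2:**
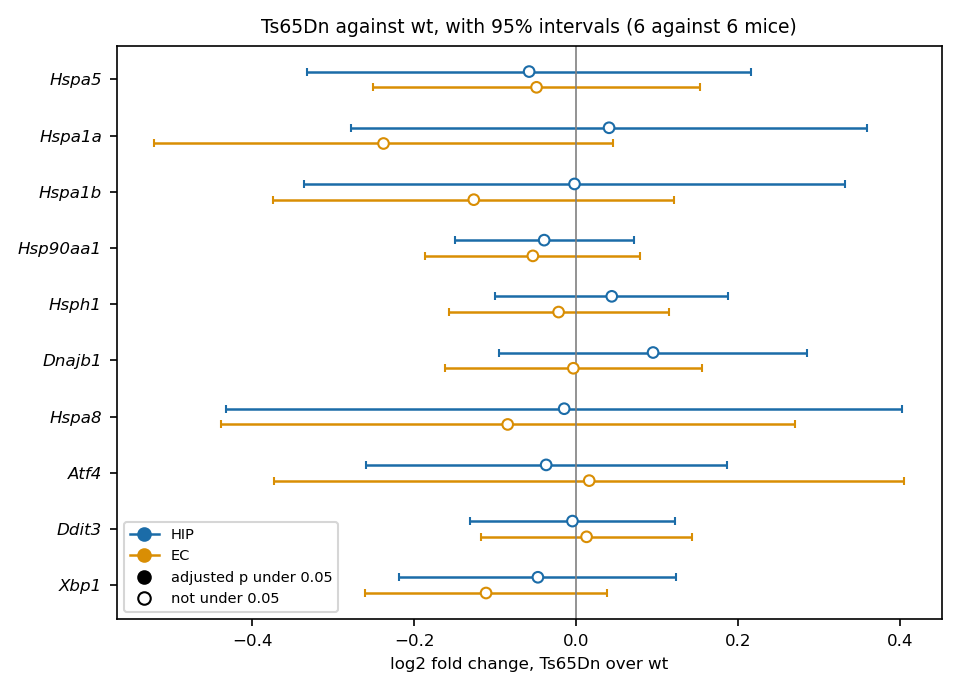
Log2 fold change of Ts65Dn over wt for each gene in HIP (blue) and EC (orange), with 95% intervals from the edgeR fit (6 against 6 mice). Open points mark genes with adjusted p not under 0.05, which holds for all 20 values, and each interval includes 0.

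Among related genes, listed by pathway with earlier results of these data known, few were called between genotypes. Those that edgeR called with all mice were lower in Ts65Dn, and no list gene was called with the replicate number as a block. The counts of called list genes between genotypes are to be read against the 1.04% of all genes called in HIP and 2.5% in EC. For an unadjusted p under 0.05 these shares were 14.8% and 18.97%. The summed astrocyte markers were lower in part too, at 4405 to 5893 CPM in Ts65Dn and 5734 to 6542 in wt in EC, and at 4619 to 5494 and 4870 to 5717 CPM in HIP. None of these 7 markers was called by edgeR in either region (4 in EC and 2 in HIP had an unadjusted p under 0.05), none was under 1 CPM, and their part in the differences below was not tested. Of 28 ER chaperone and ER-associated degradation genes, 1 was called lower and 0 higher in HIP, and 2 lower and 0 higher in EC. Dnajb9, an ER-resident HSP40 that acts on IRE1, was 37.8 CPM in Ts65Dn and 45.8 in wt in HIP (log2 fold change -0.28 ± 0.06, edgeR adjusted p = 0.0367). In the EC it was 40.4 and 52.3 CPM (-0.38 ± 0.06, edgeR adjusted p = 0.00922). With 1 mouse left out it was called in 12 of 12 fits in EC and in 3 of 12 in HIP, where the edgeR adjusted p went up to 0.0949 without Ts65Dn replicate 6. Crebrf, a regulator of the CREB3 transcription factors, was also lower in EC, 63.1 against 74.4 CPM (-0.25, edgeR adjusted p = 0.0226), in 8 of 12 such fits. Without the library labelled Ts65Dn replicate 3, Dnajb9 was -0.28 in HIP and -0.35 in EC (edgeR adjusted p = 0.0414 and 0.00812), and Crebrf was -0.24 in EC (edgeR adjusted p = 0.0289), and the list's counts were 1 and 3 lower. The list's median log2 fold change was 0.01 in HIP and -0.04 in EC.

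Of 34 further cytosolic and mitochondrial heat shock genes, 0 were called in HIP and 1 was called lower in EC. The latter was Dnaja1, an HSP40 partner of cytosolic HSP70, at 150 CPM in Ts65Dn and 182 in wt (-0.29 ± 0.06, edgeR adjusted p = 0.0200, called in 10 of 12 fits with 1 mouse left out). At an unadjusted p under 0.05 the list held 6 genes in HIP and 7 in EC, to be read against the 14.8% and 18.97% of all genes given before. In the HIP Dnaja1 was at -0.17 (edgeR adjusted p = 0.127, DESeq2 adjusted p = 0.0348). Hsf1, the heat shock transcription factor itself, had a log2 fold change of 0.26 in HIP (edgeR adjusted p = 0.0727, DESeq2 adjusted p = 0.00795) and 0.24 in EC (edgeR adjusted p = 0.0538). Without the library labelled Ts65Dn replicate 3, Hsf1 was called higher in HIP (0.29, edgeR adjusted p = 0.0342), Dnaja1 was -0.26 in EC (edgeR adjusted p = 0.0225) and 1 gene of the list was called higher in EC too.

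Of 21 integrated stress response targets tested, 0 were called in HIP and 1 was called lower in EC, beside 1.04% and 2.5% of all genes. At an unadjusted p under 0.05 there were 2 in HIP, Shmt2 and Ddit4, beside 14.8% of all genes. The called gene was Vldlr, a lipoprotein and reelin receptor (-0.21, edgeR adjusted p = 0.0316, called in 4 of 12 fits with 1 mouse left out). Of 14 stress sensor and eIF2alpha control genes, 0 were called in HIP (1 at an unadjusted p under 0.05) and 1 lower in EC, Mbtps2, the site-2 protease that releases ATF6 (-0.21, edgeR adjusted p = 0.0475, called in 2 of 12 such fits). Without the library labelled Ts65Dn replicate 3, Vldlr was called (-0.20, edgeR adjusted p = 0.0422) and Mbtps2 was not (-0.20, edgeR adjusted p = 0.0637), which left 0 sensor genes called in EC. DESeq2 gave Vldlr an adjusted p of 0.000837 and Mbtps2 one of 0.00444 in EC. Of 11 immediate early genes and 11 glucocorticoid-induced genes, which respond to handling and arousal, 0 were called in either region, with or without that library by edgeR, with medians of 0.40 and 0.06 in HIP and 0.34 and -0.02 in EC. At an unadjusted p under 0.05 there were 0 and 2 of them in HIP and 1 and 0 in EC.

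The second question was how the genes differ between the HIP and the EC of the same mouse. In wt mice 8 of the 10 were called lower in HIP and 0 higher, where edgeR called 61.3% of all genes tested, 31.0% higher and 30.3% lower. In Ts65Dn mice 6 were called lower and 0 higher, with 52.3% called over all genes, 26.6% higher and 25.7% lower. The members' median log2 fold change was -0.22 in wt and -0.17 in Ts65Dn, beside 0.00 over all genes tested in both genotypes. Because most genes differed between these regions, the share of called members is to be read against that background.

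Dnajb1 had the largest difference. It ranged from 37.7 to 51.6 CPM (median 43.7) in the wt HIP and from 61.6 to 88.6 (median 78.5) in the wt EC, and from 43.4 to 57.1 (median 45.7) and 71.5 to 83.0 (median 76.3) in Ts65Dn. The HIP libraries lay below all EC libraries in each genotype, as they did for Xbp1, and these were 2 of 10 members, where 34.2% of genes in wt and 27.1% in Ts65Dn did not overlap between regions. The log2 fold change was -0.77 ± 0.05 in wt (edgeR adjusted p = 7.43e-07) and -0.69 ± 0.05 in Ts65Dn (edgeR adjusted p = 2.14e-06), and the HIP was lower in 12 of 12 mice. Xbp1 ranged from 97.8 to 127 CPM (median 104) in the wt EC and from 89.3 to 111 (median 98.0) in the Ts65Dn EC. Each range was above the HIP values of the same genotype given before. Its log2 fold change was -0.51 ± 0.04 in wt and -0.45 ± 0.06 in Ts65Dn, again lower in HIP in 12 of 12 mice.

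Hspa8 was lower in HIP of all 12 mice, with HIP to EC ratios of 0.724 to 0.811 in wt and 0.654 to 0.880 in Ts65Dn (log2 fold change -0.40 ± 0.03 and -0.34 ± 0.06). Hspa5 was lower by 0.24 on the log2 scale in both genotypes, in 6 of 6 wt and 5 of 6 Ts65Dn mice (edgeR adjusted p = 0.00216 and 0.0145). Hsph1 was lower in 12 of 12 mice, at -0.19 in wt (edgeR adjusted p = 0.000651) and -0.13 in Ts65Dn, where it was not called by edgeR (adjusted p = 0.0593) and was called by DESeq2 (adjusted p = 0.0482). Hsp90aa1 fell by 0.15 in wt and 0.14 in Ts65Dn, and Ddit3 by 0.17 and 0.19, each with an edgeR adjusted p between 0.0129 and 0.0280. Those calls were the least firm, since leaving out 1 mouse kept Hsp90aa1 in 4 of 6 fits in wt and 3 of 6 in Ts65Dn, and Ddit3 in 4 of 6 in both. Leaving out wt replicate 3 lowered the wt count of called members from 8 to 5, without Hspa1a (edgeR adjusted p = 0.0563), Hsp90aa1 (0.0534) and Ddit3 (0.0710).

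Atf4 was at the same level in both regions within its spread. In wt it ranged from 81.1 to 121 CPM (median 95.4) in HIP and from 66.5 to 130 (median 90.4) in EC, and 3 of 6 mice were lower in HIP in each genotype. The log2 fold change had an interval of -0.12 to 0.21 in wt and -0.18 to 0.15 in Ts65Dn. Hspa1a was called lower in HIP of wt mice (-0.39 ± 0.12, edgeR adjusted p = 0.0190, 5 of 6 mice) and was at -0.09 ± 0.13 in Ts65Dn, with HIP to EC ratios of 0.668 to 1.26. Hspa1b was not called in either genotype (-0.10 and 0.03).

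**Figure D3:**
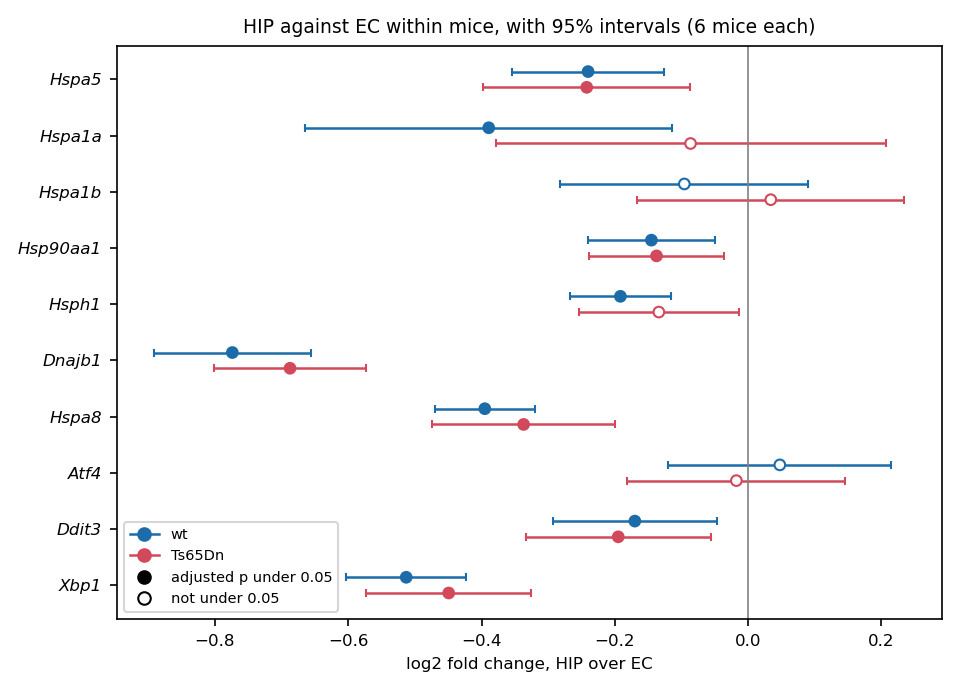
Log2 fold change of the HIP over the EC within mice for each gene, in wt (blue) and Ts65Dn (red), with 95% intervals from the edgeR fit with the mouse as a term (6 mice each). Filled points have an adjusted p under 0.05: 8 in wt and 6 in Ts65Dn, all of them below 0, with Dnajb1 and Xbp1 farthest from 0.

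Whether genotype changed the regional difference was tested in 1 model over all 24 libraries with a term for each mouse. 0 of 10 members were called for the interaction, where edgeR called 0.0% of all genes in either direction, 0.0% higher and 0.0% lower. At an unadjusted p under 0.05 there were 0 of 10 members and 4.10% of all genes. The largest interaction term was that of Hspa1a, 0.30 ± 0.18 on the log2 scale (interval -0.09 to 0.69, unadjusted p = 0.118). limma with the mouse as a random effect also called 0. The calls of Hspa1a and Hsph1 in wt alone are not shown to differ between genotypes. Without the library labelled Ts65Dn replicate 3, the interaction of Hspa1a was 0.40 (edgeR adjusted p = 0.762), and 5 members were called between regions in Ts65Dn, without Ddit3.

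Neighbouring genes of the pathways did not all follow the members between regions. The counts of called genes between regions, here and for the lists and cell type markers below, are to be read against all genes tested. Of these, edgeR called 61.3% in wt (31.0% higher and 30.3% lower in HIP) and 52.3% in Ts65Dn (26.6% and 25.7%). Of the 34 further cytosolic and mitochondrial heat shock genes, 6 were higher and 10 lower in HIP of wt mice and 7 and 7 in Ts65Dn. The largest differences among the called genes of that list were those of Bag3, an HSP70 co-chaperone of selective autophagy, and Cryab, a small heat shock protein, which were higher in HIP (0.87 and 0.72 in wt, 0.97 and 0.67 in Ts65Dn). Of the 28 ER genes, 4 were higher and 15 lower in wt and 4 and 9 in Ts65Dn, and the medians were -0.11 and -0.07. In wt Herpud1, a scaffold of ER-associated degradation, was 0.41 lower on the log2 scale (-0.41) while Dnajc3, an inhibitor of PERK, was higher (0.39), and in Ts65Dn Dnajc3 (0.43) and the ER disulphide reductase gene Dnajc10 (-0.40) led.

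Of 21 integrated stress response targets, 10 were higher and 7 lower in each genotype, led in wt by the secreted glycoprotein gene Stc2 (1.41) and Nupr1 (-1.32) and in Ts65Dn by Stc2 (2.08) and Cebpb (1.04). Of the 14 sensor genes, 6 were higher and 3 lower in wt and 6 and 2 in Ts65Dn, led by Eif2ak4, the amino acid sensor GCN2, with 0.48 and 0.42. Immediate early genes, which mark recent neuronal activity, were lower in HIP, 9 of 11 in wt and 8 of 11 in Ts65Dn, with 0 higher and Egr2 leading (-2.25 and -2.04). Of the glucocorticoid-induced genes, 7 of 11 were higher and 2 lower in wt and 8 and 1 in Ts65Dn, with Plin4 leading in both (1.68).

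Many cell type markers differed between the regions as well, not all in 1 direction. Of 7 astrocyte markers, 3 were called higher and 3 lower in HIP in each genotype. Choroid plexus markers were called higher in HIP for 6 of 6 tested in wt and 5 of 5 in Ts65Dn. The summed oligodendrocyte markers were 6717 to 10558 CPM over the HIP and 1402 to 2882 over the EC, and 7 of 7 were called higher in HIP of both genotypes. The summed neuron markers were 7552 to 9351 CPM in HIP and 10077 to 11399.7 in EC, with 5 of 8 called lower in HIP in wt and 4 of 8 in Ts65Dn. Microglia markers (359 to 406 CPM in HIP and 387 to 532 in EC of wt mice) were called lower in HIP for 7 of 7 in wt and 5 of 7 in Ts65Dn, and endothelium markers (207 to 244 and 265 to 324 CPM) for 6 of 6 and 5 of 6. In the group means no marker in these lists was under 1 CPM, except 3 choroid plexus markers in EC of each genotype. The part of these markers in the regional differences of the stress genes was not tested.

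The third question was whether a mouse that was high in 1 region was high in the other. Over 12 mice, Atf4 and Hspa1b passed a permutation test of the HIP to EC correlation after adjustment over all 18109 genes, with a positive r, as did 7.93% of all genes, whose median r was 0.32. Hspa8 is left out of this count, since its mice fell into separate ranges. Atf4 ranged from 80.7 to 121 CPM in HIP and from 66.5 to 130 in EC. Pearson's r of its log2 CPM was 0.83 (permutation p = 0.00069, adjusted p = 0.0186) and Spearman's rho 0.84 (permutation p = 0.0011). Mice with low Atf4 in HIP were low in EC in wt (r = 0.85) and in Ts65Dn (r = 0.84), and r was 0.74 without the 2 mice farthest from the HIP median.

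Hspa1b had r = 0.78 (permutation p = 0.00245, adjusted p = 0.0382) and rho = 0.75 (permutation p = 0.00686), with r = 0.59 without the 2 farthest mice. It was no longer called without the library labelled Ts65Dn replicate 3 (r = 0.77, adjusted p = 0.0613 in the permutation test). Hspa5 had r = 0.73 (permutation p = 0.00682, adjusted p = 0.0697) and rho = 0.66 (permutation p = 0.0236), but r was 0.91 among wt and 0.31 among Ts65Dn mice and 0.39 without the 2 farthest mice. Hsp90aa1, Hsph1, Dnajb1 and Xbp1 had r of 0.63 to 0.66, with permutation adjusted p of 0.134 to 0.157 and r of 0.22 to 0.72 without the 2 farthest mice. At the other end, Hspa1a (r = 0.07, rho = 0.10) and Ddit3 (r = 0.04, rho = -0.23) were lower than the median over all genes, a comparison that was not tested. Neither correlation was called (permutation adjusted p = 0.924 and 0.957), and without the 2 farthest mice r was -0.78 for Ddit3.

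Hspa8 differed from these in that its 12 mice fell into 3 separate ranges, so no r over all of them is given. In the HIP 6 mice were between 287 and 342 CPM, 3 between 426 and 455, and 3 between 539 and 568. In the EC the same mice were between 385 and 463, between 523 and 566, and between 630 and 720 CPM. Each range held wt and Ts65Dn mice (3 and 3, 1 and 2, 2 and 1). Within the 6 mice of the lowest range, r between the HIP and EC levels of Hspa8 was 0.16 and rho 0.26 (exact permutation p = 0.739 and 0.658). These 6 mice span only a narrow part of the levels, so their small r cannot show whether the 2 regions follow each other.

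The ranges ran opposite to those of Gm15459, a processed pseudogene of Hspa8 on the minus strand of chromosome 5, which was picked after its values were seen. Of the distinct 50-base words of the Hspa8 transcripts, the read length used, 34.6% also occur in Gm15459, and 38.6% in some other gene. Gm15459 took 34.0 to 38.4% of the summed CPM of the pair in HIP of the 6 mice with low Hspa8, 21.1 to 22.9% in the middle range and 9.43 to 11.1% in the mice with high Hspa8. In the EC these shares were 33.7 to 35.9%, 19.5 to 21.5% and 8.94 to 11.03%, so that both regions of each of the 12 mice gave the same range. Their source was not tested. Summed over both genes, the level was 448 to 536, 541 to 577 and 606 to 638 CPM in HIP and 585 to 722, 650 to 711 and 692 to 809 CPM in EC. The coefficient of variation in wt mice fell from 30.8% for Hspa8 to 14.4% for the sum in HIP and from 28.7% to 12.5% in EC. The sum had a HIP to EC r of 0.62 (permutation p = 0.0316) and rho of 0.58 (permutation p = 0.0517), with an r of 0.47 without the 2 farthest mice, 0.96 within wt and -0.11 within Ts65Dn mice. After adjustment over this sum and the 6 mice above, the permutation p of the sum was 0.0632 for r.

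With the counts of Hspa8 and all its pseudogenes added before the fit, the genotype difference was 0.01 (interval -0.18 to 0.21) in HIP and -0.05 (-0.22 to 0.11) in EC, narrower than for Hspa8 alone and not called (edgeR adjusted p = 0.971 and 0.771). The regional difference stayed called, at -0.39 in wt and -0.33 in Ts65Dn (edgeR adjusted p = 5.62e-06 and 0.00248).

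Reads are shared by other members too. Hspa1a and Hspa1b share 58.8% and 62.3% of their 50-base words with each other, and Hspa1a lies over the opposite-strand gene Gm20481. Summed, the pair was 9.53 ± 2.17 CPM in wt and 9.62 ± 1.16 in Ts65Dn in HIP, and 10.9 ± 1.31 and 9.69 ± 1.17 CPM in EC. The sum was lower in HIP of wt mice (-0.21, edgeR adjusted p = 0.0347) and was not called in Ts65Dn (-0.02) or between genotypes (0.01 in HIP and -0.17 in EC). Of the words of Hsp90aa1, 41.8% occur in its pseudogene Gm12346, which held 2.31 CPM in Ts65Dn and 6.23 in wt in HIP and 2.80 and 7.97 CPM in EC (log2 fold change -1.43 in HIP, edgeR adjusted p = 0.0609, with overlapping groups, and -1.52 in EC, edgeR adjusted p = 0.0174). Added to Hsp90aa1, at 569 to 644 CPM, the pseudogenes left its genotype difference at -0.05 in HIP and -0.06 in EC, not called. Hspa5, Hsph1, Atf4 and Xbp1 share no such word with another gene.

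**Figure D4:**
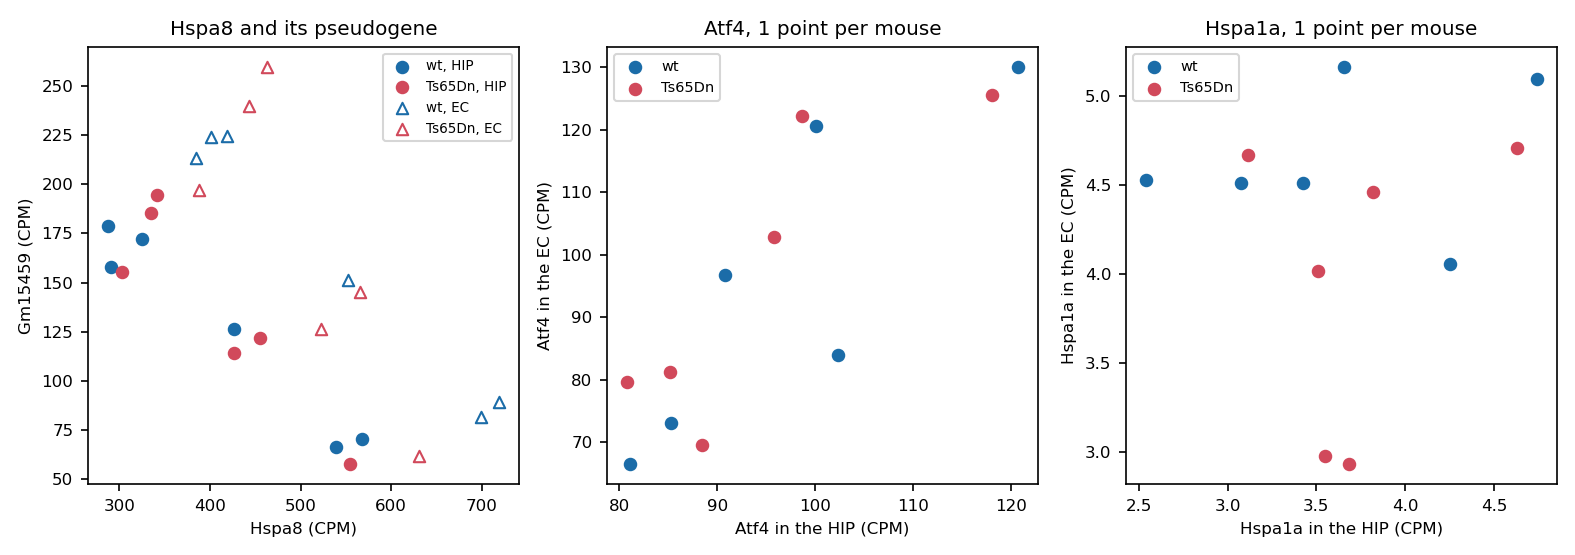
Left, Gm15459 against Hspa8 in CPM, with filled circles for the HIP, open triangles for the EC, and colour for genotype; right, the EC against the HIP level of Atf4 and of Hspa1a, 1 point per mouse. The 12 mice form 3 separate clusters for Hspa8 in each region, Atf4 runs together between regions (r = 0.83), and Hspa1a does not (r = 0.07).

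The last question was which genes vary together between mice. Among the 45 pairs of members in each of the 2 regions, 0 of 90 correlations passed the permutation test after adjustment over the 90. An unadjusted p under 0.05 was found for 12, but the share among pairs of other genes was not computed, so this count has no background. The highest in EC was that of Hspa5 and Xbp1 (r = 0.79, rho = 0.76, permutation p = 0.00194, adjusted p = 0.121), which was 0.65 in HIP (rho = 0.69, permutation p = 0.0237, adjusted p = 0.228). Hsp90aa1 and Hsph1, whose products work in 1 chaperone system with HSP70, had r = 0.78 in EC and 0.73 in HIP (permutation adjusted p = 0.121 and 0.155). Hspa1a and Hspa1b had r = 0.74 in HIP (permutation adjusted p = 0.155), and they share reads. Atf4 and Ddit3, a transcription factor and a gene it can switch on, had r = -0.63 in EC (rho = -0.68, permutation adjusted p = 0.228) and 0.27 in HIP, and the EC value was -0.35 without the 2 farthest mice.

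Genes that followed Hspa5 most closely were sought among 11568 genes with a mean of at least 5 CPM, as the smaller of the 2 regional r over 12 mice with the genotype means removed. These r are a description over mice that share libraries, given with no test. The first 5 were ER chaperone genes that are in the ER list: Pdia4 (r = 0.86 in HIP and 0.85 in EC), Manf (0.82 and 0.84), Dnajb11 (0.81 and 0.87), Pdia6 (0.79 and 0.82) and Sdf2l1 (0.80 and 0.77). PDIA4 and PDIA6 are protein disulphide isomerases, DNAJB11 and SDF2L1 form a co-chaperone complex of BiP, and MANF is a secreted ER stress protein. The others of the first 10 were Uggt1, which re-glucosylates misfolded glycoproteins, Mrpl48-ps, Ints3, Hyou1, an ER HSP110, and Copb1, a COPI coat subunit. Xbp1 was at rank 14 (0.65 and 0.82) and Hspa8 at rank 96, whereas Atf4 had -0.38 and -0.41, and Hsp90aa1 (-0.13 and 0.07) and Hsph1 (-0.15 and -0.03) did not follow Hspa5. In wt mice, replicates 1 and 4 were high and replicate 5 was low for Hspa5 in both regions, and so were the 5 chaperones on average.

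**Figure D5:**
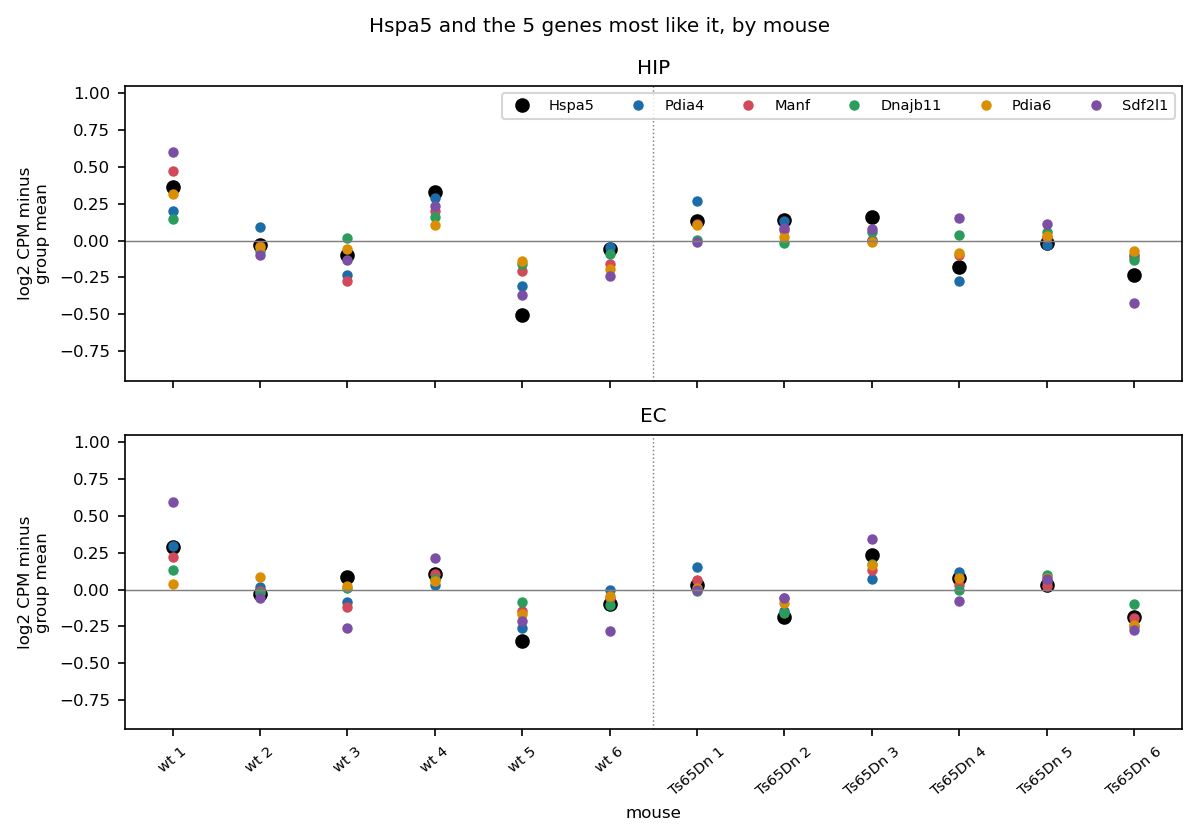
Log2 CPM minus the group mean for Hspa5 (large black points) and the 5 genes most like it, by mouse, in HIP (top) and EC (bottom), with the dotted line between wt and Ts65Dn mice. In both regions all points of wt 1 lie above the group mean and all of wt 5 below it. In some other mice, such as Ts65Dn 4 in HIP, the points fall on both sides. Hspa5 of Ts65Dn 2 is above its group mean in HIP and below it in EC.

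The bases before the start site of Hspa5 are shown because its partners above share its pattern. RefSeq sequences (GRCm38.p6) were found for 8 of the 10 members, and 250 bases before each start were searched on both strands for motifs of the 2 pathways. The RefSeq start of Hspa5 lies inside the gene coordinates given at the opening, which come from GENCODE, and so does its ER stress element. Hspa5 holds 1 ER stress element, CCAAT and CCACG with 9 bases between them, from 65 to 47 bases before the start, which 0.113% of all 32851 promoters in the table hold. It also holds 1 TGACGTG, the core of an ATF6 and XBP1 site, found in 1.65% of promoters, and 4 CCAAT boxes, 1 of them within the ER stress element, where 33.8% of promoters hold a CCAAT. Of the 10 genes most like Hspa5, 7 have an entry, of which Pdia6 holds an ER stress element and Copb1 a TGACGTG on the minus strand. The windows below run 5′ to 3′ on the gene's strand, with the motif in capitals.
Hspa5 ER stress element (chr2:34772020-34772049, plus strand): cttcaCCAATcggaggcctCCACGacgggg
Hspa5 TGACGTG (chr2:34771922-34771951, plus strand): gggcgtagcaaTGACGTGagttgcggagga
Pdia6 ER stress element (chr12:17266486-17266515, plus strand): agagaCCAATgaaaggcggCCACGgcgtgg

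For the heat shock genes the motif was the heat shock element core, GAANNTTC or TTCNNGAA, which 12.8% of promoters hold, and its 3-unit form, which 0.466% hold. Hspa1a, Hspa1b and Hsph1, at both of its start sites, hold 1 core and no 3-unit form, and there is no core in this window of Dnajb1, Hspa5, Atf4, Ddit3 or Xbp1. The ATF4 element TGATGCAA, in 0.791% of promoters, has no match in the 8 members. The Hspa1a and Hspa1b windows are shown whole, because these genes also share their reads, and they are identical at 247 of 250 bases (98.8%). The core, in capitals, begins 104 bases before the start in both.
Hspa1a (chr17:34972157-34972406, minus strand): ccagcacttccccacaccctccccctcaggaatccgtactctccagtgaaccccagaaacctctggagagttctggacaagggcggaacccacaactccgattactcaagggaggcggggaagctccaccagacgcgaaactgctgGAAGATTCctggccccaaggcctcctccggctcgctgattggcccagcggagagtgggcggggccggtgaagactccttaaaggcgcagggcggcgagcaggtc
Hspa1b (chr17:34959239-34959488, minus strand): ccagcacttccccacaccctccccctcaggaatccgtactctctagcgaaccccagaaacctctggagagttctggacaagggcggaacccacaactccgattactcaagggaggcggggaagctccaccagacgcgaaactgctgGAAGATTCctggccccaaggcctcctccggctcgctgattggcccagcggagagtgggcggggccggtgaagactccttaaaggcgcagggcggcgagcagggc
Despite this, Hspa1b was called for its HIP to EC relation and Hspa1a was not, and the difference between them was not tested.

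Genes that followed an index of Hspa1a, Hspa1b, Hsph1, Dnajb1 and Hsp90aa1 were ranked in the same way. The first 10 were Thap1 (r = 0.92 in HIP and 0.75 in EC), Rundc1, Egr3, Abcf1, Arhgef3, Dr1, Dnajb5, 2610035D17Rik, Ankrd52 and Rad23b, with a smaller r of 0.68 to 0.75. Dnajb5, an HSP40, was the only one of them in the heat shock list, and Egr3 is an immediate early gene. Of the other 5 members Xbp1 was nearest, at rank 1515. The first 10 were thus mostly not chaperones. The index is itself built from 5 chaperone genes, which are not among the genes listed, so its ranking cannot be set against that of the single gene Hspa5.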

How the data were processed

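RNA of the HIP and EC of 6 wt and 6 Ts65Dn mice was sequenced as single-end reads of 50 bases. Per the methods of the study, the authors aligned the reads with Hisat2 to GRCm38 and made raw gene counts with HTSeq-count, and the deposited count table was used as it stands. The submitters' processing notes list mm10, bcl2fastq 2.17.1.14 and DESeq2. The labels describe a poly-T mRNA kit, while the methods name a ribosomal depletion kit and also polyA RNA, which was not resolved here. The other deposited tables hold the authors' own comparisons of genotypes and were not used.

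Counts were scaled by TMM and tested with the edgeR 4.0.16 quasi-likelihood test in R 4.3.3, for genotype within a region and, with a term for each mouse, for region within a genotype and for their interaction. Low counts were filtered with edgeR's default, and p-values were adjusted by Benjamini-Hochberg over all genes tested. DESeq2 1.42.0 and limma 3.58.1 were alternatives. Depth was 23128589 to 40476492 counts. Genotype p-values set a difference against the spread between the 6 mice of a group. Those for region and interaction set it against the spread that remains after the mouse term.

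Sample titles give the HIP and EC of each mouse the same number, and the deviations of 11 of 12 mice from their group means matched best within the mouse (r = 0.33 to 0.61), while Ts65Dn replicate 4 (r = 0.21) matched wt replicate 1 best. Correlations were computed on log2 CPM (prior count 2) with 100000 permutations (exact for 6 mice) and SciPy 1.17.1 in Python 3.11.15, and those between regions were adjusted over all genes, not over the members as first designed. Shared 50-base words and positions came from GENCODE vM21 (GRCm38), which matched 99.6% of gene identifiers, and promoters from RefSeq GRCm38.p6.

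The members and the pathway lists were chosen with earlier results of these data known. Named list genes were, between genotypes, those called or otherwise the 2 with the smallest p, of which only some are printed, and, between regions, the 2 called with the largest change. Gm15459, Gm12346 and Hsf1 in the EC were named after their values were seen. Alternatives were other scaling, filters, tools and thresholds, leaving out each mouse, and summing genes that share reads.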

Additional observations from a re-analysis of the deposited data

Results flagged for a closer look

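Xbp1 in the EC of wt replicate 1 was 127 CPM, with the next highest wt mouse at 107 CPM. The gap made up 0.669 of the range of the 6 mice, above the critical value of Dixon's test. It was the single such value among 40 groups of 6 libraries (10 genes in 4 groups). By chance about 1 in 20 of such groups pass this critical value, so 1 in 40 is not more than chance gives. The same mouse was high for Hspa5 in both regions.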

How the results depend on the processing

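The count of called members was 0 between genotypes in both regions and for the interaction under each alternative run. wt and Ts65Dn mice share only a replicate number. With that number as a replicate block, the count stayed 0, while the genes called among all tested fell from 181 to 29 (HIP) and from 426 to 36 (EC). No pathway list gene was called with that block. DESeq2 called 662 of all genes in HIP and 1141 in EC, with 3 and 4 of the heat shock list and 2 and 4 of the ER list, and edgeR with all 24 libraries in 1 fit called 768 in EC. Without a filter on low counts, 275 were called in EC, and 37 for the interaction. Leaving out 1 mouse gave 54 to 318 genes in HIP and 90 to 685 in EC, lowest without Ts65Dn replicate 6 in HIP and replicate 1 in EC. Between regions, 8 members in wt became 5 at an adjusted p under 0.01, and 5 to 8 with 1 mouse left out, lowest without wt replicate 3. In Ts65Dn 6 became 3 at an adjusted p under 0.01, and 4 to 6 with 1 mouse left out. With no replicate block for the mouse, 6 members were called in wt and 4 in Ts65Dn, and Hspa8 was among those lost in both. The count of members whose HIP and EC levels passed the permutation test was 3 with Hspa8 included, and 2 when Ts65Dn replicate 3 was left out, and no member pair was called under any alternative. Of 612 alternative values of single members, 594 stayed on their side of the threshold, 16 lost the call, 2 gained it and 0 reversed it. The sign changed in 56 of the alternative values of members. The causes were not tested. Depth limits Hspa1a, at 71 to 164 counts per library.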
